A study of Mus musculus with 6 samples.

Results

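The transcripts of the constitutive proteasome, the protease that degrades ubiquitin-tagged proteins in every cell, were described in mouse bone marrow-derived macrophages with and without oxidised low-density lipoprotein (oxLDL). Members were the genes of the expected-count table whose symbol starts with Psma, Psmb, Psmc or Psmd followed by a digit, without Psmb8, Psmb9, Psmb10 and pseudogenes, and with 10 or more counts in at least 3 of the 6 samples. This gave 36 of 24054 genes, 15 for the core (Psma1 to Psma8, Psmb1 to Psmb7) and 21 for the cap (Psmc1 to Psmc6, Psmc3ip, Psmd1 to Psmd14). Marrow cells of wild-type C57BL/6 mice had been grown for 7 days in L929-conditioned medium, a source of the macrophage growth factor M-CSF. Then 3 samples received 50 µg/ml oxLDL for 24 hours and 3 were left without it. Both groups carry the numbers 1, 2 and 3, and mix, a word in every title, goes unexplained. Nothing in the labels says that the samples were separate cultures or animals, so the tests measure only the spread between these samples, which may be technical.

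The proteasome is a barrel with a cap on its ends. The barrel, or core, is built of outer alpha rings (Psma genes), which gate the entry, and inner beta rings (Psmb genes), of which Psmb5, Psmb6 and Psmb7 encode the subunits that cut the substrate. The cap recognises ubiquitin chains, removes them and unfolds the protein: a ring of ATPases (Psmc genes) drives the unfolding, and the remaining cap subunits (Psmd genes) form the base with its ubiquitin receptors and the lid with its deubiquitinase. When proteasome capacity falls short, the transcription factor NFE2L1 is known to raise many subunit genes together through antioxidant response elements, and interferon replaces the catalytic subunits by Psmb8, Psmb9 and Psmb10. OxLDL is taken up by macrophages through scavenger receptors and is a model of the lipid load of atherosclerotic plaques.

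Not all members are subunits. Psmc3ip encodes a partner of recombinases in meiosis and carries the prefix only because it binds PSMC3. Psma8 encodes an alpha subunit known mainly from testis, and Psmd5, Psmd9 and Psmd10 encode chaperones that assemble the cap. Psma8 and Psmc3ip were also the members nearest to the count limit. Psma8 had 24, 8 and 22 counts without oxLDL and 39, 35 and 28 with it, in the order of sample numbers as for all levels that follow. Psmc3ip had expected counts, before rounding, between 14.03 and 18.16 in all samples. Psmb11, the beta subunit of the thymus, had at most 2 counts in any sample and was outside the limit.

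Promoter sequence was searched because the genes are known to share regulators. RefSeq promoters (GRCm38.p6, 250 bases before to 50 bases after the start of the gene) were matched for 29 of the 36 members. The 7 without one were Psma8, Psmb1, Psmb2 and Psmb7 of the core and Psmc3, Psmd3 and Psmd7 of the cap. The antioxidant response element core TGACNNNGC, searched on both strands, was in 5 of the 29 (17.2%), Psmb5, Psmb6, Psmc6, Psmd12 and Psmd9, beside 12.4% of 32851 promoters of the same length. CCAAT was in 12 of 29 (41.4%, beside 37.4%). CCGGAAG, a core recognised by ETS factors, was in 11 of 29 (37.9%, beside 8.86% of all promoters). For all 3 patterns, members were counted once per gene and the comparison once per promoter entry, so the percentages differ in unit. Of these, 10 were cap genes by the rule, Psmc3ip included, and 1 was a core gene, but fewer core than cap genes were searched. A match is a description of letters in this window and not a site. The 250 bases before the start are printed for the 4 members with the smallest edgeR p-values, Psmb5 (chr14:54617996-54618245, minus strand), Psmb6 (chr11:70525107-70525356, plus strand), Psmd1 (chr1:86064369-86064618, plus strand) and Psmd8 (chr7:29180674-29180923, minus strand), and for Psmd2 (chr16:20651402-20651651, plus strand) as an example with CCGGAAG. These 5 were chosen after their values were seen. Capitals mark TGACNNNGC or CCGGAAG on either strand. Each sequence reads 5′ to 3′ on the strand of the gene.
Psmb5: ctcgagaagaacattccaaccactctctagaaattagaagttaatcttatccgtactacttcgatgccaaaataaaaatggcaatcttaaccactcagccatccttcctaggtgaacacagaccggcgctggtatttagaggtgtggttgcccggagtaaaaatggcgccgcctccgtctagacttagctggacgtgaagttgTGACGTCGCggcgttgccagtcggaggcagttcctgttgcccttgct
Psmb6: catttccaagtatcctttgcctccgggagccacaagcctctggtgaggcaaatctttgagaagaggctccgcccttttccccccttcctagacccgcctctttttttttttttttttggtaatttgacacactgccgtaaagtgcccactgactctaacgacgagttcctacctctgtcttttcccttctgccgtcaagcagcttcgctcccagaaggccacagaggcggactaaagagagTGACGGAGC
Psmd1: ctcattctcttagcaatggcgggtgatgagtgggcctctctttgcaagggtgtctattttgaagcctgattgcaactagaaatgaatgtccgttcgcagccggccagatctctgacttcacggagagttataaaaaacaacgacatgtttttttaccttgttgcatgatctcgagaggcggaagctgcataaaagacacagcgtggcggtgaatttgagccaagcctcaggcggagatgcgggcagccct
Psmd2: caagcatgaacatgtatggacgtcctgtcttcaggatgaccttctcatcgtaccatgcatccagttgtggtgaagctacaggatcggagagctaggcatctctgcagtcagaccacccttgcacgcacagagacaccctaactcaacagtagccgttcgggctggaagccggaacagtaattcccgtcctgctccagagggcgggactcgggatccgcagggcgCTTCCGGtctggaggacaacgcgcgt
Psmd8: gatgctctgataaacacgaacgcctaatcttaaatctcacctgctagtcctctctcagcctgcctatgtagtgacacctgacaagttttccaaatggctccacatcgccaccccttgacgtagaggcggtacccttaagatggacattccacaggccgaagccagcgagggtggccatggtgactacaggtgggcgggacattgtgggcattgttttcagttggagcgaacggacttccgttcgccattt
The TGACNNNGC match begins 47 bases before the start in Psmb5 and 9 bases before it in Psmb6, so these genes carry it close to the start. The remaining catalytic gene, Psmb7, had no matched promoter and was not searched. In Psmd2 the CCGGAAG match lies on the opposite strand, 26 bases before the start. The windows of Psmd1 and Psmd8 hold neither of these letter patterns.

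Each library held between 13546572 and 15559310 expected counts. Levels are given as CPM, counts scaled to library size with TMM factors. In log2 CPM over all tested genes, untreated sample 3 correlated with untreated samples 1 and 2 at r = 0.889 and 0.897, while samples 1 and 2 correlated with each other at 0.984. The oxLDL samples were split likewise, sample 3 correlating with samples 1 and 2 at 0.9075 and 0.9216, and samples 1 and 2 with each other at 0.9826. Untreated sample 3 and oxLDL sample 3 correlated at 0.9642, so both samples numbered 3 stood apart. The summed level of 9 measured macrophage markers was 35982, 27402 and 13094 CPM without oxLDL and 16195, 9225 and 11301 CPM with it, so it was lowest among untreated samples in sample 3 and lower with oxLDL in every pair. Lyz2 and Emr1 carried most of this sum. Cd68 went the other way, with 739.7, 1096 and 1195 CPM in the untreated cells and 1613, 1643 and 1328 CPM with oxLDL. It was higher in each pair, beside 26.4% of all tested genes, and its groups did not overlap, beside 10.5%. It did not pass (edgeR adjusted p = 0.187). Of these markers, 2 of 9 fell (Fcgr1 and Spi1) and none rose in the test described next. Markers of other cells were low. T cell markers summed to 8.12 to 31.1 CPM in untreated and 4.85 to 15.7 CPM in oxLDL samples, nearly all of it Cd4, and no Cd3 gene exceeded 0.145 CPM. B cell markers summed to 3.48 to 38.0 CPM in untreated and 1.74 to 9.55 CPM in oxLDL samples, nearly all of it Cd79b, which fell (edgeR adjusted p = 0.0362). Neutrophil markers summed to 7.03 to 30.4 CPM in untreated and 1.27 to 4.78 CPM in oxLDL samples, and dendritic cell markers to 1.73 to 4.27 CPM in untreated and 1.45 to 3.41 CPM in oxLDL samples. Fibroblast markers reached at most 0.200 CPM, and Pdgfra and Hbb-b1 were at 0 in all 6 samples. The part of the macrophage and other markers in the proteasome levels was not tested. In bulk RNA, fewer cells of a type and less RNA per cell cannot be told apart.

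The comparison of oxLDL-treated with untreated cells asked which transcripts differ in macrophages given oxLDL. No proteasome member passed the test in either direction. With edgeR's quasi-likelihood test, the sample number as a block and adjustment over all 11400 tested genes, 0 of 36 members rose, while 1.91% of all tested genes did, and 0 of 36 fell, beside 3.98%. Psmb5, a catalytic subunit, had the smallest adjusted p of the members (edgeR, 0.105). Without the block 0 of 36 members passed, beside 0.00% of all tested genes, and the smallest adjusted p of a member was 0.408 for Psmd5 (edgeR). Before adjustment, 4 of 36 members lay higher at p below 0.05 in the blocked edgeR fit (Psmb5, Psmb6, Psmd1 and Psmd8), beside 13.3% of all tested genes. None lay lower before adjustment, beside 15.7%. Without the block the count before adjustment was 0 of 36, beside 14.7%. DESeq2 with the block called 1 of 36 members higher, Psmd8, beside 6.17% of all tested genes, and limma-voom with the block and DESeq2 without it called none, beside 2.75% higher in the former and 7.71% in either direction in the latter.

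In the blocked edgeR fit, the intervals bounded the size of the difference for most members. The 95% interval of the log2 fold change lay within ±1, a change of 2-fold, for 34 of 36 members. Psma8 and Psmd8 were the exceptions. The fitted change itself was below 1.5-fold for 34 of 36, Psma8 and Psmd8 again being the others. In 25 of 36 members the fitted log2 change was smaller than the SD of the 3 untreated samples on the log2 scale. The same share over all tested genes is not given here. These bounds hold for the blocked fit only, and the labels do not establish its pairing. Without the block the SE was larger for all members but Psma5, Psmc3ip, Psmd5 and Psmd12. For Psmb5, Psmb6 and Psmd10 it was 0.33, 0.47 and 0.49, beside 0.15, 0.15 and 0.12 with the block.

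**Figure D1:**
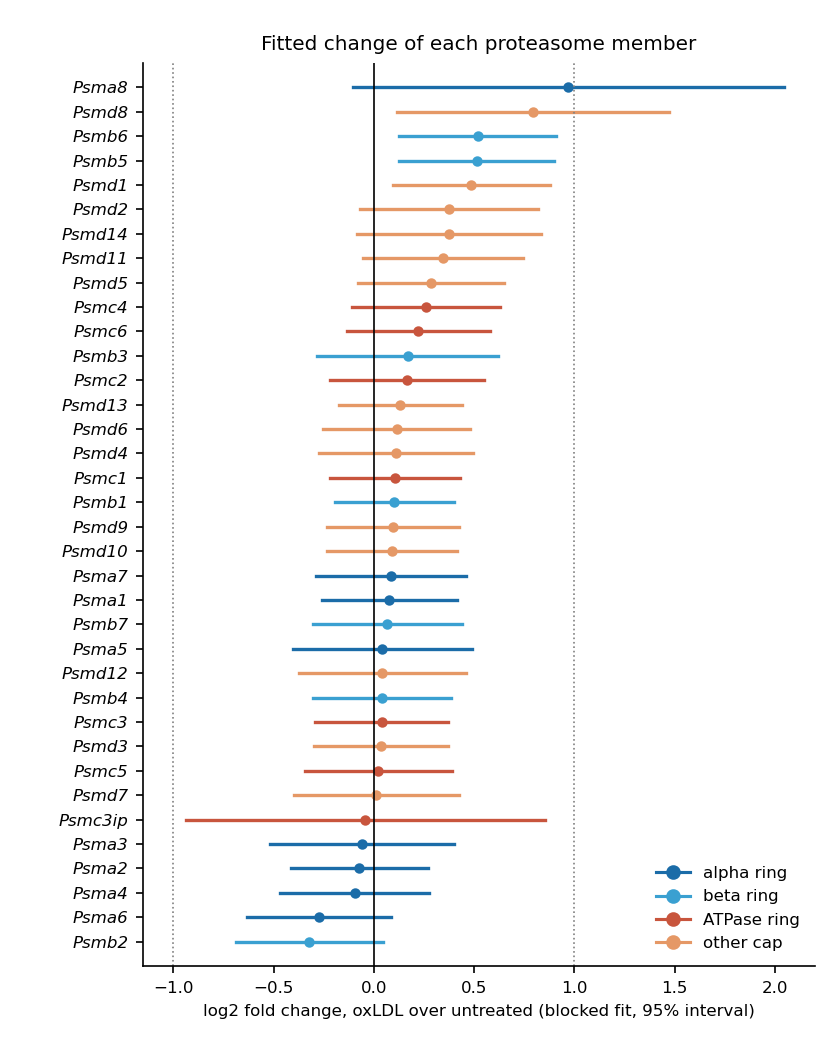
Fitted log2 fold change (x axis, oxLDL over untreated, edgeR with the sample number as a block) of each of the 36 members (rows, in order of the estimate, coloured by class); points are estimates and bars 95% intervals, with dotted lines at a change of 2-fold. Most bars cross 0; the 4 that lie above it are Psmb5, Psmb6, Psmd1 and Psmd8, and none lies below.

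Small shifts upward were more frequent than downward ones. The log2 fold change was above 0 in 30 of 36 members, beside 5861 of all 11400 tested genes. Its median was 0.10, beside 0.012 over all tested genes, and it ran from -0.32 for Psmb2 to 0.97 for Psma8. The pairs of same-numbered samples differed from each other. The median log2 ratio of the members was -0.058, 0.37 and 0.12 in pairs 1, 2 and 3. In these pairs 16, 32 and 27 of the 36 members lay above 0, beside 5826, 5819 and 5522 of all 11400 tested genes. In pair 2 nearly every member was higher with oxLDL, and in pair 1 more members lay below 0 than above it. In all 3 pairs 13 of 36 members were higher, beside 26.4% of all tested genes, and 2 were lower, Psma6 and Psmb2, beside 27.0%. The count of 13 depended on scaling, being 10 with RLE factors and 16 with upper-quartile factors. The treated and untreated samples did not overlap in 3 members that were higher with oxLDL, Psma8, Psmd14 and Psmd5, beside 10.5% of all tested genes. They did not overlap in 1 member that was lower, Psmb2, beside 10.6%.

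**Figure D2:**
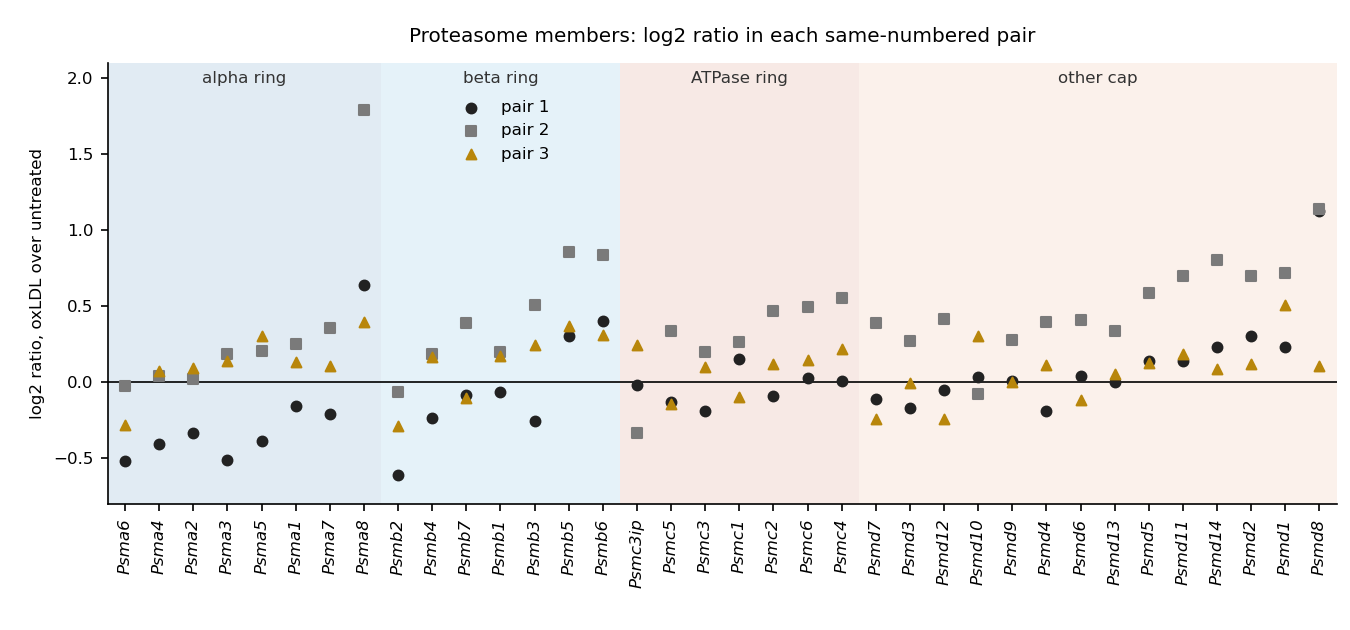
Log2 ratio of oxLDL over untreated CPM (y axis) for every member (x axis, by class), with 1 symbol for each same-numbered pair. The medians of the members were -0.058, 0.37 and 0.12, so pair 2 sits highest and pair 1 is the only one with a median below 0.

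The alpha ring of the core lay close to no change. Its 8 members had a median log2 fold change of -0.008, a value whose sign turned without the block (0.003) and with upper-quartile scaling (0.098). By pair the median log2 ratios were -0.36, 0.20 and 0.12, so the ring was lower with oxLDL in pair 1 and higher in the others. Only Psma8 was above 0 in pair 1, and 7 of 8 members were above 0 in pair 2 and again in pair 3. Psma6, a subunit of the gate ring, had the lowest fold change of the ring. It measured 120.0, 94.3 and 119 CPM in the untreated cells and 83.8, 92.9 and 97.7 CPM with oxLDL. The oxLDL sample was the lower one in every pair, by very little in pair 2, and the groups overlapped. With a log2 fold change of -0.27 ± 0.138 (SE; 95% interval -0.63 to 0.084; edgeR adjusted p = 0.261), it did not pass, and it was -0.16 without pair 1.

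Psma8 had the highest fold change of all members. It measured 1.64, 0.576 and 1.50 CPM in the untreated cells and 2.62, 2.34 and 2.03 CPM with oxLDL, so all its levels were low and untreated sample 2 was the lowest. The fit gave a log2 fold change of 0.97 ± 0.414 (SE; 95% interval -0.11 to 2.05; edgeR adjusted p = 0.204) and no call, and the interval spanned more than 2-fold in the upward direction. Without pair 2 the value was 0.56. Without Psma8, the median of the other 7 alpha genes was -0.059, and 0 of these 7 lay above 0 in pair 1. Psma1, Psma2, Psma3, Psma4, Psma5 and Psma7, the remaining ring subunits, had log2 fold changes between -0.096 (Psma4) and 0.085 (Psma7).

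In the beta ring, a pair of catalytic genes stood above the other members of the ring. Psmb5 encodes the chymotrypsin-like subunit, the target of proteasome inhibitors such as bortezomib. It measured 44.7, 45.1 and 79.4 CPM in the untreated cells and 55.4, 81.8 and 103 CPM with oxLDL. Every oxLDL sample was above the untreated sample of its number, yet untreated sample 3 was about as high as oxLDL sample 2 and the groups overlapped. The fitted difference, a log2 fold change of 0.51 ± 0.148 (SE; 95% interval 0.13 to 0.90; edgeR adjusted p = 0.105), did not pass, and without the block the adjusted p was 0.529 (edgeR). Leaving out pair 2 gave 0.34, and leaving out oxLDL sample 3 and the block gave 0.27.

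Psmb6 encodes the caspase-like subunit and measured 88.9, 85.5 and 208 CPM in the untreated cells and 117, 153 and 258 CPM with oxLDL. Samples numbered 3 were the highest of both groups, and untreated sample 3 lay above oxLDL samples 1 and 2. With a log2 fold change of 0.52 ± 0.150 (SE; 95% interval 0.13 to 0.91; edgeR adjusted p = 0.106), it did not pass. Fitted without the pair numbered 3, Psmb6 rose (log2 fold change 0.62, edgeR adjusted p = 0.0300), in a fit that called 14.0% of its genes higher. Its value was lower without pair 2 (0.36, edgeR adjusted p = 0.495). With the block dropped as well, it was 0.26 without untreated sample 1, 0.25 without untreated sample 2, 1.02 without untreated sample 3 and 0.074 when oxLDL sample 3 was left out, none of which passed.

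Psmb7, the trypsin-like subunit, measured 71.9, 60.9 and 97.6 CPM in the untreated cells and 67.7, 79.9 and 90.9 CPM with oxLDL, with the oxLDL sample above the untreated one in pair 2 only. The fitted log2 fold change of 0.067 ± 0.143 (SE; 95% interval -0.30 to 0.44; edgeR adjusted p = 0.784) turned below 0 without pair 2 (-0.09) and, without the block, without untreated sample 1 or 2 or oxLDL sample 3. Together the 3 catalytic genes summed to 205, 192 and 385 CPM without oxLDL and 240.4, 315 and 452 CPM with it, which is 1.17, 1.64 and 1.17 times the untreated level in pairs 1, 2 and 3. The sum was higher with oxLDL in each pair, and the groups overlapped.

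Psmb2, a structural beta subunit, was the member with the lowest fold change. It measured 96.4, 69.0 and 66.4 CPM in the untreated cells and 63.2, 66.0 and 54.3 CPM with oxLDL. All 3 oxLDL samples lay below all 3 untreated samples, the nearest 2 values being those of untreated sample 3 and oxLDL sample 2. The fit gave a log2 fold change of -0.32 ± 0.141 (SE; 95% interval -0.69 to 0.045; edgeR adjusted p = 0.213) and no call, and it was -0.18 without pair 1 and -0.15 without untreated sample 1 and the block. Psmb1, Psmb3 and Psmb4, the other structural members, had log2 fold changes of 0.10, 0.17 and 0.042. The 4 structural beta genes had a median of 0.072 and the 3 catalytic ones of 0.51, values given as a description.

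**Figure D3:**
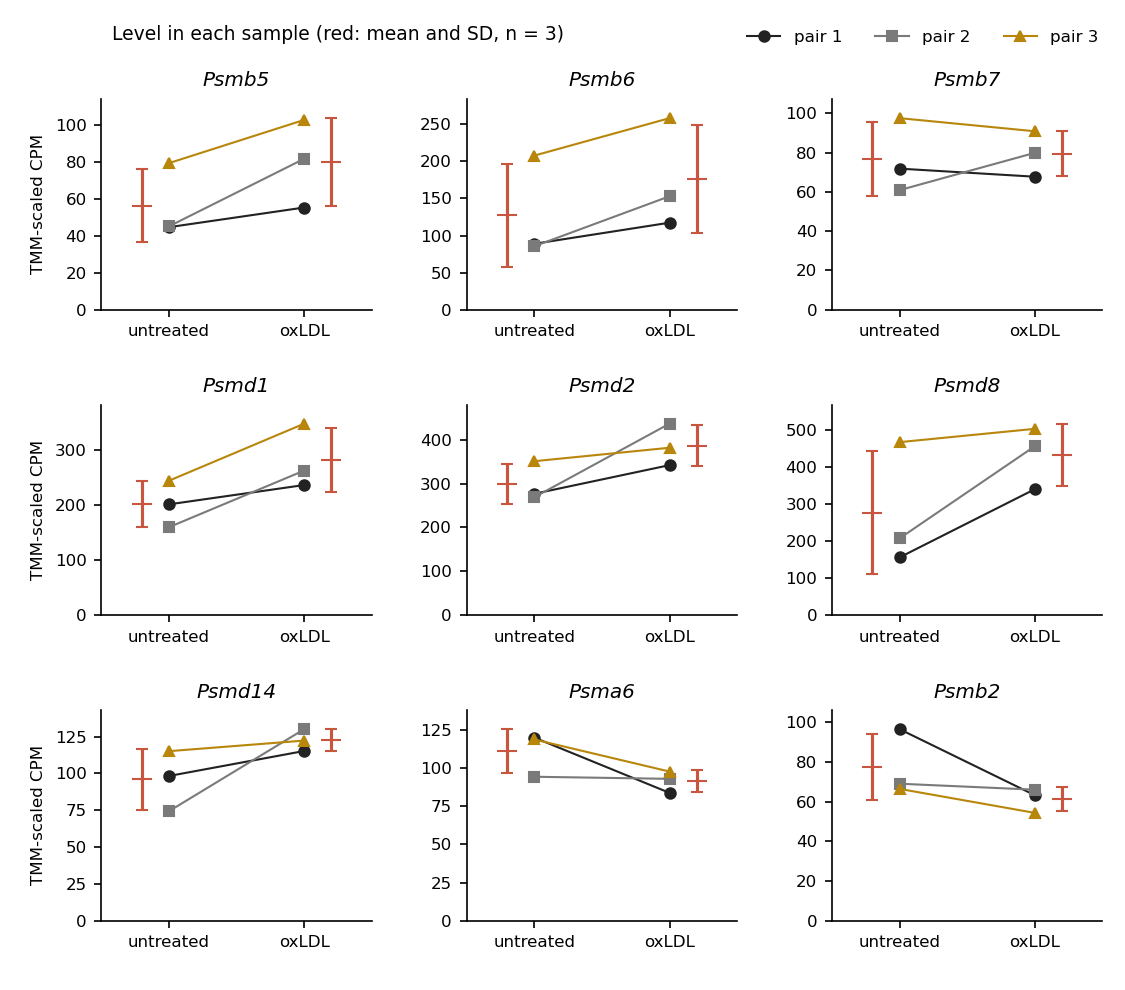
TMM-scaled CPM (y axis) of 9 members in the untreated and oxLDL samples (x axis), with lines joining samples of the same number and red bars for the mean and SD of 3 samples. Untreated sample 3 lies above both other untreated samples in Psmb5, Psmb6, Psmb7, Psmd1, Psmd2, Psmd8 and Psmd14, and the oxLDL samples of Psma6 and Psmb2 are lower in each pair.

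In the ATPase ring of the cap the values lay close together. Its 6 subunits, Psmc1 to Psmc6, had log2 fold changes from 0.022 (Psmc5) to 0.26 (Psmc4), all above 0, with a median of 0.14. Their median log2 ratios were -0.043, 0.40 and 0.11 in pairs 1, 2 and 3. Psmc4 measured 70.4, 60.0 and 79.3 CPM in the untreated cells and 70.7, 88.3 and 92.4 CPM with oxLDL. The oxLDL sample was the higher one in each pair, in pair 1 by a ratio near 1, and the groups overlapped. The fitted difference, a log2 fold change of 0.26 ± 0.142 (SE; 95% interval -0.11 to 0.63; edgeR adjusted p = 0.291), did not pass, and it was 0.11 without pair 2. Psmc3ip, the class member that is no ATPase, measured 1.24, 1.28 and 0.958 CPM without oxLDL and 1.21, 0.983 and 1.13 CPM with it. With a log2 fold change of -0.042 ± 0.343 (SE; 95% interval -0.93 to 0.85; edgeR adjusted p = 0.948), at counts this low a change of nearly 2-fold in either direction lay inside its interval, and the sign turned with upper-quartile scaling (0.064).

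In the base of the cap, Psmd1 and Psmd2 encode the large scaffolds, and Psmd2 and Psmd4 bind ubiquitin or ubiquitin-like domains. Psmd1, named here after its values were seen, measured 201, 159.6 and 244 CPM in the untreated cells and 236, 262 and 347 CPM with oxLDL. Every oxLDL sample was above its pair partner, and only untreated sample 3 reached into the oxLDL range. With a log2 fold change of 0.49 ± 0.150 (SE; 95% interval 0.096 to 0.88; edgeR adjusted p = 0.117), it did not pass. Psmd2 measured 277, 269 and 351 CPM in the untreated cells and 342, 437 and 382 CPM with oxLDL. It was also higher in each pair, and untreated sample 3 lay just above oxLDL sample 1. The fit gave a log2 fold change of 0.38 ± 0.170 (SE; 95% interval -0.067 to 0.82; edgeR adjusted p = 0.224) and no call, and leaving out pair 2 gave 0.21. Psmd4, the ubiquitin receptor of the base, measured 83.7, 75.7 and 108 CPM without oxLDL and 73.6, 99.7 and 117 CPM with it. It was lower with oxLDL in pair 1 and higher in the others, with a log2 fold change of 0.11 ± 0.148 (SE; 95% interval -0.28 to 0.49; edgeR adjusted p = 0.659), which turned to -0.035 without pair 2.

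In the lid, Psmd8 had the largest fitted change of any subunit of the standard proteasome. It measured 156, 207 and 467 CPM in the untreated cells and 340.2, 456 and 503 CPM with oxLDL. Pairs 1 and 2 had log2 ratios of 1.12 and 1.14, whereas untreated sample 3 was already near the oxLDL level and pair 3 gave 0.11. The fitted difference, a log2 fold change of 0.79 ± 0.260 (SE; 95% interval 0.12 to 1.47; edgeR adjusted p = 0.132), did not pass in the blocked edgeR fit. DESeq2 with the same block called it higher (adjusted p = 0.0312). Fitted without pair 3, Psmd8 rose in edgeR (log2 fold change 1.13, adjusted p = 0.00306), in the fit that called 14.0% of all its genes higher. Its value was 0.62 without pair 1 and 0.61 without pair 2 (edgeR adjusted p = 0.511 and 0.514). With the block dropped as well, it ran from 0.35 without untreated sample 1 to 1.26 without untreated sample 3, and was 0.47 and 0.51 without untreated sample 2 and oxLDL sample 3, and none of these passed.

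Psmd14 encodes the deubiquitinase that releases ubiquitin chains before degradation. It measured 98.2, 74.3 and 115 CPM in the untreated cells and 115, 130.0 and 122 CPM with oxLDL. All oxLDL samples lay above untreated sample 3, the highest untreated one, from which oxLDL sample 1 was hardly separated. With a log2 fold change of 0.37 ± 0.176 (SE; 95% interval -0.084 to 0.83; edgeR adjusted p = 0.237), it did not pass. Without pair 2 the value for Psmd14 was 0.16 and without pair 3 it was 0.52. Psmd14, Psmb7, Psmc2, Psmd3 and Psmc3ip had expected counts that were not whole in at least 1 sample, as arises where reads are divided among similar genes, and the other 31 members had whole counts.

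Psmd7, a lid subunit and partner of Psmd14, had the lowest fold change of the Psmd genes. It measured 85.3, 65.4 and 102 CPM without oxLDL and 78.9, 85.9 and 86.1 CPM with it, with a log2 fold change of 0.012 ± 0.159 (SE; 95% interval -0.40 to 0.43; edgeR adjusted p = 0.967). This value has no stable direction, since it was -0.0088 without the block and -0.18 without pair 2. Psmd3, Psmd6, Psmd11, Psmd12 and Psmd13, the other lid subunits among the members, had log2 fold changes of 0.034, 0.11, 0.34, 0.042 and 0.13. Psmd5, Psmd9 and Psmd10, the assembly chaperones of the cap, had values of 0.28, 0.097 and 0.092. Of these, Psmd5 measured 40.8, 35.2 and 42.4 CPM without oxLDL and 45.1, 52.9 and 46.2 CPM with it, every oxLDL sample lying above every untreated one, and its edgeR adjusted p was 0.251.

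Core and cap were set side by side. The median log2 fold change was 0.067 over the 15 core genes, 10 of them above 0, and 0.11 over the 21 cap genes, 20 of them above 0. By pair the core had medians of -0.23, 0.21 and 0.14 and the cap of 0.0092, 0.41 and 0.11. The core was therefore below the cap in pairs 1 and 2 and slightly above it in pair 3. The difference of the medians, core minus cap, was -0.046 and turned to 0.010 without untreated sample 1 and without the block. The core median turned below 0 without pair 2 (-0.042) and, without the block, without oxLDL sample 3 (-0.064). The cap median stayed above 0 in these fits but ran from 0.027 without pair 2 to 0.28 without untreated sample 3 and the block, and was 0.049 and 0.053 without untreated sample 2 and oxLDL sample 3. With upper-quartile factors, which moved the median of all genes by 0.11, it was 0.22. Neither core nor cap had a member that passed, and these medians have no test of their own.

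The levels were also summed over each part of the particle. Core transcripts summed to 1250.2, 1081 and 1358 CPM without oxLDL and to 1072, 1310.3 and 1480.1 CPM with it. Cap transcripts summed to 1916, 1759.5 and 2594 CPM untreated and to 2188, 2660.2 and 2811 CPM with oxLDL. The cap sum was higher with oxLDL in each pair (1.14, 1.51 and 1.08 times the untreated level), the core sum in pairs 2 and 3 (0.857, 1.21 and 1.09 times). Group means were 1229.5 ± 139.9 and 1287 ± 205 CPM for the core and 2089.7 ± 443 and 2553 ± 325 CPM for the cap (untreated and oxLDL, SD, n = 3), so the groups overlapped for both.

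Per kilobase of transcript, the core-to-cap ratio of summed CPM was 1.07, 0.995 and 0.880 without oxLDL and 0.823, 0.830 and 0.907 with it. It was lower with oxLDL in pairs 1 and 2 and higher in pair 3 (ratios of 0.766, 0.834 and 1.03), and untreated sample 3 lay within the oxLDL range. Without Psmb6 and Psmd8, a choice made after seeing the data, these ratios were 0.804, 0.855 and 0.997. All members together took 0.298, 0.273 and 0.391 percent of all counts in the untreated samples and 0.336, 0.420 and 0.438 percent in the oxLDL samples.

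**Figure D4:**
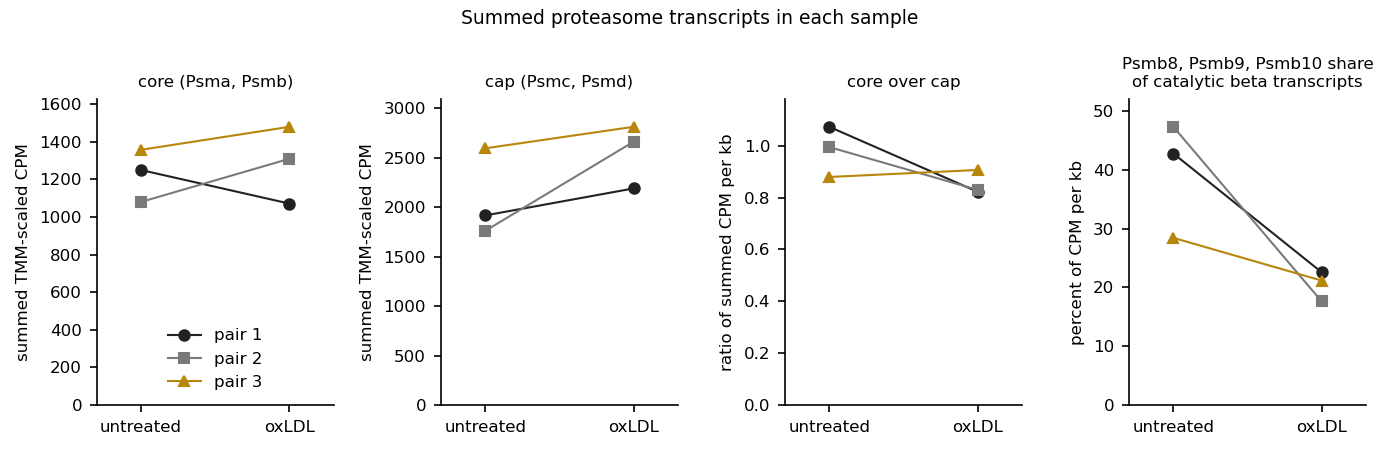
From left to right, y axes show the summed TMM-scaled CPM of core and of cap members, the core-to-cap ratio of CPM per kilobase, and the share of Psmb8, Psmb9 and Psmb10 among catalytic beta transcripts in percent of CPM per kilobase; x axes give the group and lines join samples of the same number. The cap sum is higher with oxLDL in each pair, and untreated sample 3 has the highest core and cap sums of the untreated samples.

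The difference among untreated samples was larger than that between groups for most members. Untreated sample 3 lay above the mean of untreated samples 1 and 2 by a median log2 difference of 0.29 over the members, beside 0.0065 over all tested genes. For the cap the median difference was 0.43, with 19 of 21 genes above 0, and for the core 0.079, with 11 of 15. The genes farthest above were Psmd8 (1.38), Psmb6 (1.25), Psmd10 (1.02) and Psmb5 (0.82). In 25 of 36 members this difference was larger in size than the fitted oxLDL change. The share of all tested genes for which this held is not given here, so the count is not particular to the members. Over all tested genes, untreated sample 3 was the untreated sample that correlated least with the others. Untreated sample 3 was also the untreated sample with the lowest summed macrophage markers, a sum carried mainly by Lyz2 and Emr1. Of the 9 markers, Csf1r, Emr1, Itgam, Mertk, Lyz2, Cd14 and Spi1 were lowest in this sample, and Cd68 and Fcgr1 were highest. The part of these markers in the proteasome levels was not tested.

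Levels between members were compared per kilobase of the principal transcript. In untreated cells the highest were Psmd8 at 179.8 ± 108 CPM per kilobase (SD, n = 3), Psmb6 at 159.6 ± 87.3, Psma6 at 107 ± 13.9 and Psmd2 at 101 ± 15.3. These 4 neighbours overlapped in mean ± SD, Psmd8 and Psmb6 having the widest spread. The median member had 57.0 CPM per kilobase. The lowest were Psma8 at 0.732 ± 0.342 and Psmc3ip at 0.898 ± 0.136, followed by the cap chaperones Psmd9 at 7.12 ± 1.16 and Psmd5 at 8.98 ± 0.860.

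None of the other pathway genes examined passed the blocked edgeR test in either direction. Among the interferon-induced subunits and their activator, Psmb8, Psmb9, Psmb10, Psme1 and Psme2 had log2 fold changes of -0.78, -1.19, -1.07, -0.78 and -0.87, with edgeR adjusted p from 0.0735 to 0.199. All but Psme2 were lower in each pair, beside 27.0% of all tested genes, and their groups did not overlap, beside 10.6%. These 4 were below 0.05 before adjustment in edgeR, beside 15.7% of all tested genes lower. DESeq2 with the block called the same 4 genes lower, beside 10.1% of all tested genes, limma-voom called none of them, and DESeq2 without the block called Psmb9 and Psme1, beside 7.71%. Psmb9 measured 33.8, 44.4 and 32.4 CPM in the untreated cells and 14.5, 12.6 and 22.4 CPM with oxLDL. Per kilobase, Psmb8, Psmb9 and Psmb10 made up 42.8, 47.3 and 28.4 percent of the transcripts of the 6 catalytic beta genes without oxLDL and 22.6, 17.6 and 21.2 percent with it. The share was lower with oxLDL in each pair, and the groups did not overlap.

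Of the core assembly chaperones, 0 of 5 measured genes passed by any of these tools, and 2 lay higher before adjustment in edgeR, Psmg1 and Psmg2, beside 13.3% of all tested genes. Psmg1 and Psmg2, which pair to start the alpha ring, had log2 fold changes of 0.42 and 0.45. Pomp, which guides the beta ring, had -0.24. In the route of NFE2L1, 0 of 11 passed in edgeR and 2 lay higher before adjustment, Maff and Mafg, beside 13.3% of all tested genes. DESeq2 with the block called Maff higher, beside 6.17%. Nfe2l1 itself had -0.29, Ddi2, the protease that activates its product, -0.17, and Vcp, the segregase that extracts it from the membrane, 0.27. Its small partners Maff and Mafg had 1.50 and 0.49 (edgeR adjusted p = 0.0621 and 0.0802), and without the block the edgeR adjusted p was 0.781 and 0.633. Maff measured 0.478, 0.720 and 13.4 CPM in the untreated cells and 2.29, 2.67 and 26.1 CPM with oxLDL, so untreated sample 3 lay above oxLDL samples 1 and 2 and the groups overlapped, as they did for Mafg.

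Among factors that deliver ubiquitinated proteins to the proteasome or to autophagy, 0 of 6 tested genes passed in edgeR and 3 lay higher before adjustment, beside 13.3% of all tested genes. DESeq2 and limma-voom with the block called Sqstm1 higher, beside 6.17% and 2.75%, and DESeq2 without it called Ubqln2, beside 7.71%. Sqstm1, the autophagy receptor p62, measured 625, 673 and 3852 CPM in the untreated cells and 1722, 2091 and 5940.1 CPM with oxLDL. Untreated sample 3 lay above oxLDL samples 1 and 2, so the groups overlapped. Its log2 fold change was 1.24 (edgeR adjusted p = 0.0714), and without the block the adjusted p was 0.676 (edgeR) and 0.643 (DESeq2). Ubqln2, a proteasome shuttle, had 0.48 (edgeR adjusted p = 0.0801). Of the ubiquitin genes and E1 enzymes 0 of 6 passed, and of the other activators and the inhibitor Psmf1 0 of 3. Of the cap-associated genes Adrm1, Uchl5, Usp14, Shfm1 and Ube3c, 0 of 5 passed. Each of these lists had 0 below 0.05 before adjustment in edgeR and 0 called by DESeq2 or limma-voom. As a second large complex of housekeeping genes, the cytosolic chaperonin (Tcp1 and Cct genes, which fold actin and tubulin) had 0 of 8 past the threshold in edgeR, DESeq2 and limma-voom and 0 below 0.05 before adjustment in edgeR. Its median log2 fold change was 0.11, with pair medians of -0.13, 0.19 and 0.20, beside 0.10 and -0.058, 0.37 and 0.12 for the proteasome members. The fold change was above 0 in 7 of the 8 chaperonin genes, beside 30 of 36 proteasome members.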

How the data were processed

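Bulk poly(A) RNA of the 6 samples was sequenced with a stranded kit and 150 bp paired-end reads, per the labels' protocols. The authors deposited expected counts per gene, and the submitters' processing notes list Bowtie2 2.1.0, RSEM 1.2.15 and edgeR. The notes also list hg19, a human build, although the symbols are those of mouse. The annotation and the strand setting of the counting were not given in the sources used here. A deposited table of normalised values was not used here.

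Expected counts were rounded to whole numbers, because 10.4% to 11.1% of a sample's values were not whole (tolerance 0.005), as happens where reads are divided among similar genes. Genes were filtered with filterByExpr (minimum count 10, minimum total 15), which kept 11400, and scaled with TMM factors of 0.942 to 1.06. The quasi-likelihood test of edgeR 4.0.16 (R 4.3.3, robust) was fitted with group and sample number, and p-values were adjusted over all tested genes by the Benjamini-Hochberg method at a threshold of 0.05. SE was computed from the fitted log2 fold change and its F statistic (absolute change divided by the square root of F). The 95% intervals are t intervals on this SE. Alternatives used DESeq2 1.42.0, limma-voom (limma 3.58.1), other scaling and filters, no block, and fits leaving out libraries. DESeq2 without the block, the core without Psma8 and the sums without Psmb6 and Psmd8 were chosen after seeing the data. The script was tested on simulated data.

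Groups and numbers come from the sample titles. Samples of the same number shared deviations from their group means (r = 0.66, 0.45 and 0.70 across genes), over the limit of 0.1 set for pairing. That they exceeded 0.1 was known when this limit was written down, so it is no test of the pairing. Untreated sample 2 and oxLDL sample 1 also correlated at 0.63, higher than the samples numbered 2 did with each other. The block was made the leading fit because the members are compared by number, with the call counts of both fits known. Members, gene lists and motifs were likewise chosen with earlier results of these data known. Statistics are printed for the catalytic genes, Psmd2, Psmd4, Psmd14 and the highest and lowest member of each class, and Psmd1 was added after its values were seen. Transcript lengths are those of the principal transcripts in GENCODE M21, which need not be the annotation of the authors. Of the listed pathway and marker symbols, Adgre1 (present as Emr1), Sem1 (present as Shfm1), Ufd1 (present as Ufd1l), Paaf1 and Ly6g were not matched. Ddi1 had no counts and was not tested.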

Additional observations from a re-analysis of the deposited data

How the results depend on the processing

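The count of 0 members past the threshold held in edgeR without the replicate block, under other scaling and filters, without robust estimation and in limma-voom. DESeq2 with the block called 1 member, Psmd8, and leaving out samples gave 0 to 2 members higher and 0 lower, the 2 being Psmb6 and Psmd8 without the pair numbered 3. Over all genes the 672 calls of the paired fit became 0 without the replicate block and 1853 in DESeq2 with it, and leaving out samples gave 0 to 3446 (31 without oxLDL sample 3 and the block). With whole pairs left out, 14 to 25 members were higher in all remaining pairs, against 13 in all 3, fewer pairs making the condition easier to meet. With all pairs kept, 10 members were higher in each with RLE factors and 16 with upper-quartile factors. Upper-quartile factors moved the median of all genes by 0.11 (log2), and relative to it the core and cap medians were 0.055 and 0.10. The core median turned below 0 without pair 2 (-0.042) and without oxLDL sample 3 (-0.064). The cap median ran from 0.027 to 0.28 when samples were left out. Core minus cap ran from -0.20 to 0.010 when samples were left out. Signs turned only for Psmb7, Psmc3ip, Psmd4 and Psmd7 among the 13 genes named by rule. With no replicate block Psmd7 was -0.0088, and -0.0003 with RLE factors and in blocked DESeq2, and -0.021 in DESeq2 without the block. Psmc3ip was 0.064 with upper-quartile factors. Leaving out a pair gave -0.094 to 0.15 for Psmb7, -0.19 to 0.12 for Psmc3ip, -0.035 to 0.25 for Psmd4 and -0.18 to 0.14 for Psmd7; without pair 2, Psmb7, Psmc3ip, Psmd4 and Psmd7 were -0.094, 0.12, -0.035 and -0.18. Without single samples and without the block, the turned values were -0.095 to -0.0036 for Psmb7 (-0.067 without oxLDL sample 3), 0.029 to 0.035 for Psmc3ip, -0.051 for Psmd4 and -0.17 to -0.0075 for Psmd7 (-0.031 and -0.041 without oxLDL samples 2 and 3). The cause was not tested. Psma8 and Psmc3ip, with few counts, have the least precise values.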
